A study of Mus musculus with 8 samples.

Results

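Transcripts of 9 genes were followed across the immune cells of mouse colon tumours whose fibroblasts had kept or lost Zeb1. The genes were Plac8, Cyp4f18 and 7 members of the Ms4a family (Ms4a4c, Ms4a4b, Ms4a6b, Ms4a6c, Ms4a6d, Ms4a7 and Ms4a1), out of 20275 gene symbols and 16 Ms4a genes listed in the data. They were selected on the genotype difference in mononuclear phagocytes: Plac8, Cyp4f18 and Ms4a4c had higher values in macrophage and monocyte wells of FibΔZeb1 tumours, and the other Ms4a genes were added as relatives. The genotype difference in those wells is therefore given as a description with no test. All 9 genes were found, each as 1 entry, with 130 (Ms4a4b) to 4228 (Plac8) transcripts over all wells. Ms4a6d and Ms4a7 were not listed for FibCtrl replicate 2 and Ms4a1 was not listed for FibΔZeb1 replicate 3, and they were taken as 0 there.

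Ms4a proteins cross the membrane several times and resemble tetraspanins, and many of them sit in immune receptor complexes. Different members mark different leukocytes. Ms4a1 encodes CD20, the B cell surface protein, Ms4a4b is a T cell protein that limits proliferation, and Ms4a7 is a gene of mature tissue macrophages. Plac8 encodes a small cysteine-rich protein known from monocytes, neutrophils and B cells. Cyp4f18 encodes a cytochrome P450 that inactivates leukotriene B4, a lipid that attracts neutrophils.

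The tumours grew in the caecum of mice after orthotopic transplantation of genetically engineered colon tumour organoids. Both groups carried floxed Zeb1 alleles (Zeb1 fl/fl) and both were fed a tamoxifen diet. FibΔZeb1 mice (Zeb1Fib-deleted) were positive for a tamoxifen-inducible Cre, and FibCtrl mice (Zeb1Fib-Ctrl) were negative for it. The labels name the transgene Col1a1Cre-ERT2, whereas the methods of the study describe a Col1a2-CreERT2 allele on an FvB background. Cre was meant to act in fibroblasts, and immune cells were not its target in either group. The animals were age-matched littermates of both sexes, and their age is not given in the labels. Each of 8 plates held sorted cells of 1 tumour, 1 cell per well in 384 wells, and each genotype had 4 plates. CD45+ immune cells, Epcam+ epithelial cells and cells negative for these markers and CD31 shared the plates.

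Among the members with a promoter window, 2 pairs of Ms4a genes shared long runs of bases. On GRCm38, the 7 Ms4a members lay within 355.175 kb of chromosome 19, in a cluster of 19 protein-coding Ms4a genes that spans 678.559 kb (chr19:10962293-11640851). Plac8 lay on the minus strand at chr5:100553725-100572245 and Cyp4f18 on the minus strand at chr8:71988482-72009626. RefSeq gave a promoter window, from 250 bases before to 50 bases after a transcription start, for 7 members, and none was matched for Ms4a6d and Ms4a1. The windows of Plac8 (the member with the largest genotype difference) and of 2 pairs of relatives are shown 5′ to 3′, with capitals for GGAAGT or its reverse complement ACTTCC, the core bound by ETS factors such as PU.1. The window positions are chr5:100572156-100572455 (minus strand) for Plac8 and, on the plus strand, chr19:11407411-11407710 for Ms4a4c, chr19:11443308-11443607 for Ms4a4b, chr19:11518309-11518608 for Ms4a6b and chr19:11469118-11469417 for Ms4a6c.
Plac8: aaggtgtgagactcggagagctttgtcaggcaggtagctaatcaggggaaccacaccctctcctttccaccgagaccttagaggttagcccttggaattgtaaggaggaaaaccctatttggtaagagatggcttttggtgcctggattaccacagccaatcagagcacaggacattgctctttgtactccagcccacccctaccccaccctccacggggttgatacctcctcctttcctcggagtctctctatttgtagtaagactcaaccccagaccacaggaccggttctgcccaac
Ms4a4c: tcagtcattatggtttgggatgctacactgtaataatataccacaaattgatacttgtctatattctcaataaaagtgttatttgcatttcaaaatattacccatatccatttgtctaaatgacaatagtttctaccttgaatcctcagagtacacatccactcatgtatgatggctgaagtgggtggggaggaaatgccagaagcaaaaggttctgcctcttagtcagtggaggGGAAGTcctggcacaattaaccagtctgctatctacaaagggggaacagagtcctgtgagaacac
Ms4a4b: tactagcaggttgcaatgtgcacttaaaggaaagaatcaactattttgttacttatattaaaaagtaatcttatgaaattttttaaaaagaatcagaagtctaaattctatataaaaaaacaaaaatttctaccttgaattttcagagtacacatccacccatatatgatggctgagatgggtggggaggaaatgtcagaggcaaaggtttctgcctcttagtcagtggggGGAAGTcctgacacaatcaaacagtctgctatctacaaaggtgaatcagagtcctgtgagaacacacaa
Ms4a6b: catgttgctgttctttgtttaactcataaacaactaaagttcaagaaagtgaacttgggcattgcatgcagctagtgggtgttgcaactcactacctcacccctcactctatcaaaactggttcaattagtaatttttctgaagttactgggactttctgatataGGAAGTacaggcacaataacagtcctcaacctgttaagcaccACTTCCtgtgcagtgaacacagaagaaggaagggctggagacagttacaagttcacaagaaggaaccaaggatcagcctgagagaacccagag
Ms4a6c: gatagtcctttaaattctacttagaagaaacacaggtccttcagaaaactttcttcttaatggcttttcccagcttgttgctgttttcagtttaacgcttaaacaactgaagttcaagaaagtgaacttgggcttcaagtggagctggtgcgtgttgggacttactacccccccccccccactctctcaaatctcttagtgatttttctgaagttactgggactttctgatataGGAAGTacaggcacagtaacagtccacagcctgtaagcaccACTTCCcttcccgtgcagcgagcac

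The windows of Ms4a6b and Ms4a6c shared an unbroken run of 48 bases, and those of Ms4a4c and Ms4a4b shared a run of 20 bases. All other pairs of first windows shared at most 10 bases. GGAAGT or ACTTCC was found in the windows of Ms4a4c (from -15), Ms4a4b (from -19), Ms4a6b (from -85 and -43), Ms4a6c (from -16 and 25) and the first of 2 windows of Ms4a7 (from -15), counted from the transcription start. None was found in the windows of Plac8 and Cyp4f18. On both strands, 23.8% of 32851 mouse promoter windows of this length held this motif, which was chosen after the sequences were read. GAAA followed by another GAAA after any 2 bases, a core of the interferon-stimulated response element, was found in no window of a member and in 3.44% of all windows. TTGCNNAA, a C/EBP-type motif, was found in the second window of Plac8 and in 10.8% of all windows. These matches describe letters only and were not tested as binding sites.

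Relatives can also share transcript ends, where these libraries were read. In the last 500 bases of their transcripts, 11.1% of the 50-base words of Ms4a4c, 4.22% of Ms4a4b, 4.31% of Ms4a6b and 7.76% of Ms4a6c also occurred in another gene, in part in each other. No such word was shared for Plac8, Cyp4f18, Ms4a6d, Ms4a7 or Ms4a1. Genes on the opposite strand overlapped Cyp4f18, Ms4a4c, Ms4a6b, Ms4a6c and Ms4a1. Whether counting used the strand is not given in the sources used here, so reads of these partners cannot be told apart from reads of the members.

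Transcripts were counted with unique molecular identifiers and summed over the wells of a cell class on each plate, and a level is given as transcripts per 1000000 cell transcripts of that sum (CPM). Plates held 981881 to 5905188 cell transcripts, and FibCtrl replicate 2 stood apart as the shallowest, with a median of 221 per well. Of 3072 wells, 1831 were kept and 1575 were assigned to a class by marker genes that include no member. There were 106 C1q-positive macrophage, 74 C1q-low monocyte, 197 neutrophil, 128 B cell, 133 T cell, 481 epithelial and 396 fibroblast wells. A plate entered the mean of a class with at least 10 wells of it. FibCtrl replicate 2 thus gave no value for macrophages, monocytes, B cells or T cells. The 3 plates behind the C1q-low means were all FibΔZeb1, while 2 plates of each genotype stood behind the C1q-positive means, so these 2 means differ in genotype as well as in class. Zeb1 in fibroblast wells was at 82.4, 21.4 and 73.0 CPM in FibCtrl replicates 1, 3 and 4 and at 53.1, 48.1 and 28.8 CPM in the same-numbered FibΔZeb1 replicates, which overlap. Zeb1 reads come from the 3′ end of the gene, so they do not check the deletion of another part of it.

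C1q-positive and C1q-low wells were split by complement C1q genes at 5 per 10000 transcripts, and 23 of the 180 wells lay near that limit. The C1q-low name was checked against monocyte markers. Vcan was at 174 CPM in C1q-low and 32.6 CPM in C1q-positive wells, and the chitinase-like gene Chi3l3 at 323 and 56.5 CPM. Ly6c2, the defining gene of classical monocytes, was at 34.8 and 7.16 CPM, on only 22 and 9 transcripts. The macrophage genes Apoe (3196 and 12084 CPM) and Emr1 (96.4 and 267 CPM), the latter encoding F4/80, went the other way. Gpnmb, also listed as a macrophage gene, did not, at 216 and 31.9 CPM. The dendritic cell genes Flt3 (19.0 and 2.39 CPM) and Cd209a (31.6 and 6.36 CPM) were higher in C1q-low wells, on few transcripts. Zbtb46 was at 0 and 0.795 CPM. The neutrophil marker S100a8 was also higher in C1q-low wells, at 130 and 27.8 CPM. Whether dendritic cells or neutrophils were among the C1q-low wells was not tested. These are values pooled over plates, with no test. The named markers are not the whole lists. In the fit of these 2 classes described below, 2 of 9 classical and 3 of 4 patrolling monocyte genes were on the C1q-positive side.

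Of all members, Ms4a1 was the most restricted in its class. In B cell wells it was at 1120 CPM in FibCtrl replicate 1, 741 CPM in FibΔZeb1 replicate 2 and 1548 CPM in FibΔZeb1 replicate 4 (1136 ± 403, SD, n = 3 plates). Its mean in every other class was at most 1.41 CPM. After each well was thinned to 1000 transcripts, 50.4% of B cell wells held an Ms4a1 transcript (95% exact binomial interval 41.3 to 59.5%), against 0 of 133 T cell wells, where a floor of 3 wells allows a share of wells with a transcript of up to 2.26% at this depth. Before thinning the B cell share was 80.5%, at median depths of 2746 transcripts per well for B cells and 3372 for T cells.

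Ms4a4b and Ms4a6b had their highest mean in T cell wells. Ms4a4b was at 32.9, 435 and 85.2 CPM in T cells of FibCtrl replicates 1, 3 and 4 and at 0, 136, 517 and 210 CPM in FibΔZeb1 replicates 1 to 4. It thus ran from 0 to 517 CPM between plates of the same genotype, with a mean of 202 ± 200 CPM (SD, n = 7 plates). No Ms4a4b transcript was counted in C1q-low monocyte, neutrophil or B cell wells, and C1q-positive wells held 7. Ms4a6b, a relative also known from T cells, was detected on each of these plates, at 304, 711 and 321 CPM in FibCtrl and 257, 680, 642 and 263 CPM in FibΔZeb1 (454 ± 211, n = 7). It also occurred in C1q-low monocytes (171 ± 32.1 CPM, n = 3), C1q-positive macrophages (94.9 ± 39.9, n = 4) and B cells (53.2 ± 11.4, n = 3). In neutrophil, epithelial and fibroblast wells its mean was at most 2.67 CPM.

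Cyp4f18 had its highest mean in neutrophils, the cells that respond to leukotriene B4. Neutrophil wells held 900, 673 and 748 CPM in FibCtrl replicates 2, 3 and 4 and 244, 824, 462 and 448 CPM in FibΔZeb1 replicates 1 to 4 (614 ± 236, n = 7). B cells followed at 114 ± 28.8 CPM (n = 3), C1q-low monocytes at 104 ± 68.0 (n = 3) and C1q-positive macrophages at 69.3 ± 67.2 (n = 4). The mean in T cell, epithelial and fibroblast wells was at most 2.82 CPM. After thinning, 33.9% of neutrophil wells (27.0 to 41.3%) and 0% of T cell wells held a transcript, although neutrophil wells were shallower (median 1908 transcripts).

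Ms4a4c, Ms4a6c and Ms4a6d had their highest means in mononuclear phagocytes, and the first 2 were also counted in lymphocytes. Ms4a4c was at 410 ± 212 CPM (n = 3) in C1q-low monocytes, 167 ± 162 (n = 4) in C1q-positive macrophages and 118 ± 48.3 (n = 3) in B cells, with 44.9 ± 32.7 (n = 7) in T cells and 9.16 CPM in neutrophils. On the 2 plates with at least 10 wells of both phagocyte classes its means were 478 CPM in C1q-low and 263 CPM in C1q-positive wells. Ms4a6c ran from 575 ± 78.1 CPM in C1q-low monocytes and 276 ± 126 in C1q-positive macrophages, or 542 and 379 CPM on those 2 plates, to 105 ± 49.1 in T cells, 78.3 ± 36.1 in B cells and 75.6 ± 123 in neutrophils. Ms4a6d was at like means in both phagocyte classes, 497 ± 177 CPM in C1q-low and 461 ± 181 in C1q-positive wells, and at 79.9 ± 122 in neutrophils. B cells, T cells, epithelium and fibroblasts held at most 7.56 CPM of Ms4a6d. Ms4a7 had its highest mean in C1q-positive macrophages (167 ± 103 CPM, n = 4), against 19.7 ± 7.09 CPM (n = 3) in C1q-low monocytes and at most 5.64 CPM elsewhere.

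Plac8 was the one member whose means were at least 78.3 CPM in all 7 large classes. C1q-low monocytes held 1025, 830 and 410 CPM in FibΔZeb1 replicates 1, 3 and 4 (755 ± 314, n = 3), while B cells (243 ± 121, n = 3) and fibroblasts (239 ± 73.6, n = 6) came next. Neutrophils (132 ± 94.9, n = 7), epithelial cells (120 ± 143, n = 8), C1q-positive macrophages (103 ± 90.1, n = 4) and T cells (78.3 ± 74.9, n = 7) were lower. After thinning, 41.7% of C1q-low wells held a Plac8 transcript (30.2 to 53.9%), against 10.9% of C1q-positive wells (5.56 to 18.7%) and 4.51% of T cell wells. Before thinning the first 2 shares were 64.9% and 26.4%, at median depths of 7122 and 10702 transcripts per well.

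Whether classes next to each other in a member's order of means differ could not be settled with these plate numbers. Of 54 neighbouring pairs, 45 could be tested by an exact two-sided sign-flip permutation over plates that held both classes, and 0 passed after Benjamini-Hochberg adjustment over all pairs (lowest adjusted p = 0.865). A single pair reached an unadjusted p under 0.05, Ms4a6c in fibroblast over epithelial wells (exact permutation p = 0.0312, higher on 6 of 6 plates). Most pairs shared 2 to 4 plates, where the smallest possible p is 0.5, 0.25 or 0.125. With 5, 6 or 7 shared plates it is 0.0625, 0.0312 or 0.0156. After adjustment over the 45 pairs, no pair could pass even at its smallest possible p. The 0 calls were thus fixed by the number of plates and say nothing about whether neighbours differ.

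**Figure D1:**
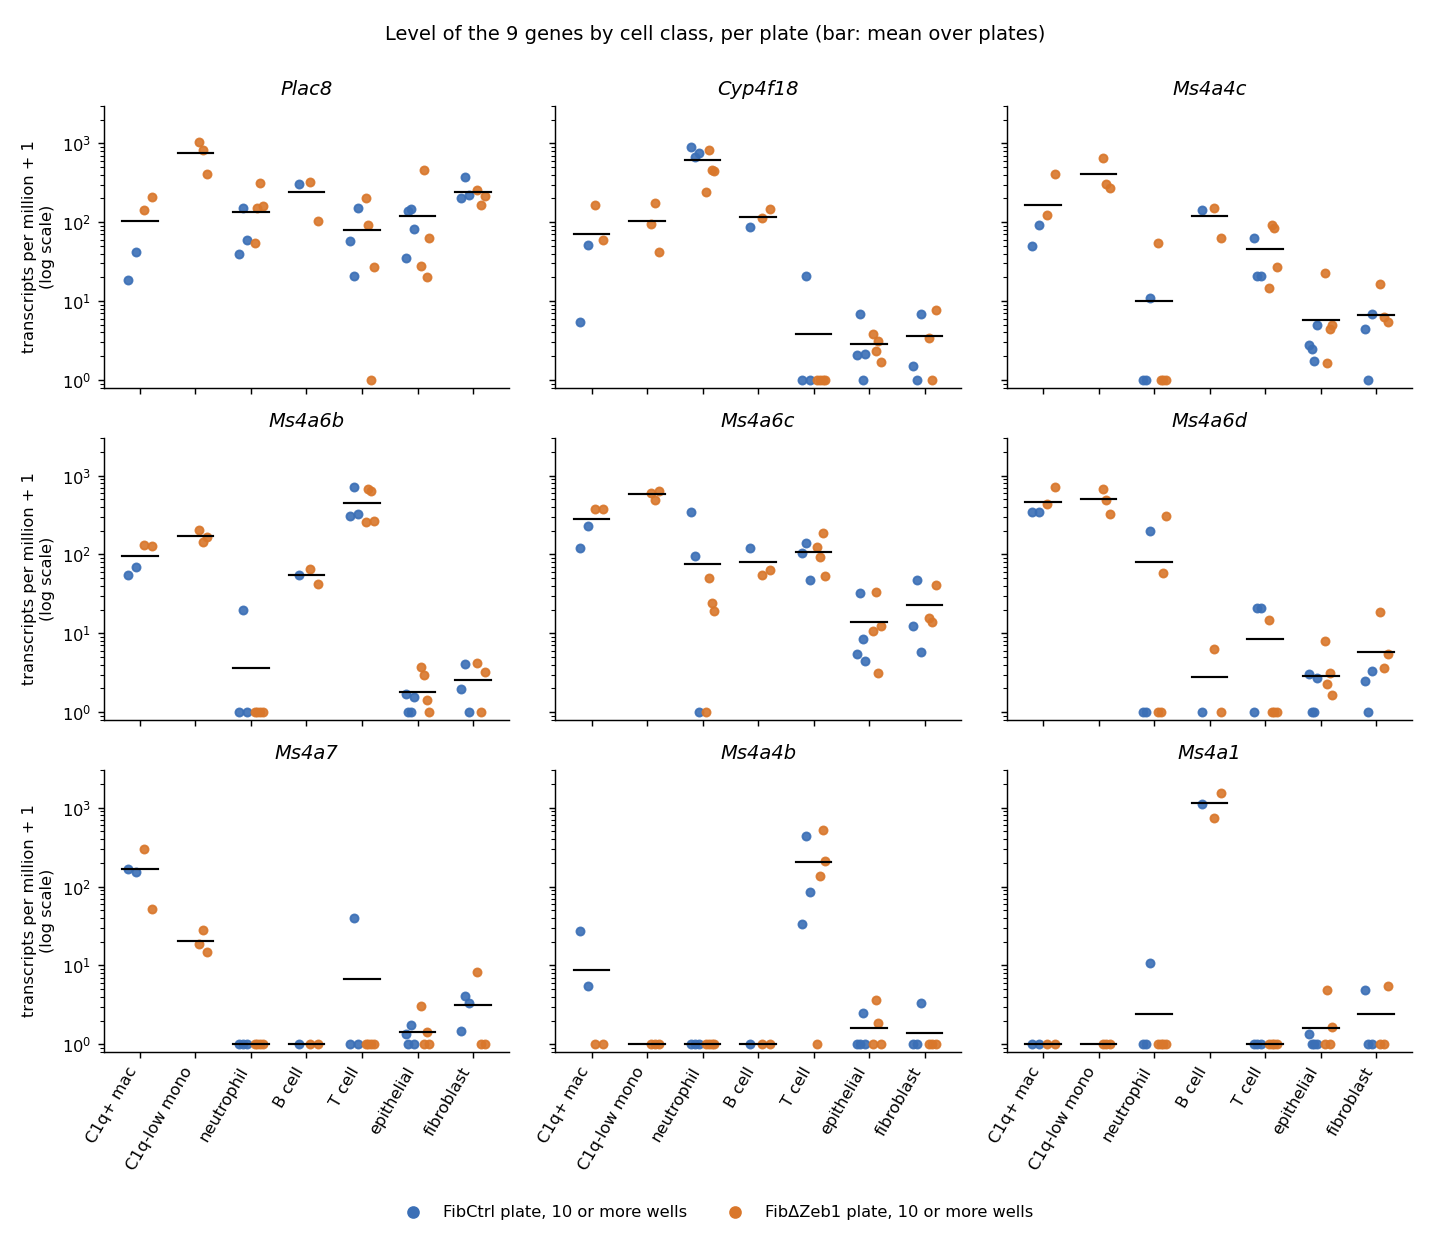
Level of each of the 9 members (CPM + 1, log axis) in 7 cell classes, with 1 point per plate that held at least 10 wells of the class (blue FibCtrl, orange FibΔZeb1) and a bar at the mean over plates. Ms4a1 stands high in B cells alone, Ms4a4b in T cells, Cyp4f18 in neutrophils and Ms4a7 in C1q-positive macrophages, while Plac8 points lie above 1 in nearly all classes and reach 1025 CPM in C1q-low monocytes.

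Within the mononuclear phagocytes, Plac8 marked the C1q-low side. It was at 144 CPM in C1q-positive and 1025 CPM in C1q-low wells of FibΔZeb1 replicate 1, and at 211 and 830 CPM in FibΔZeb1 replicate 3. These were the 2 plates with at least 10 wells of both classes. Both belong to the genotype for whose high phagocyte values Plac8 was chosen, so its levels and p-values here are not free of that choice. In edgeR's quasi-likelihood test with plate as a block, Plac8 was lower in C1q-positive wells by 2.40 on the log2 scale (log2 difference -2.40, SE 0.31, adjusted p = 0.0107, lower on 2 of 2 plates). It was 1 of 15 genes called among 3921 tested (0.383%), and the fit had 1 residual degree of freedom. The difference was called in all 5 alternative fits, with adjusted p from 7.12e-10 to 0.00923. These fits reuse wells of those 2 plates, with further plates only at a minimum of 5 wells, and are no separate support.

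Ms4a7 lay on the other side, at 301 and 50.6 CPM in C1q-positive and 17.9 and 27.5 CPM in C1q-low wells of those plates. Its difference did not pass (log2 difference 2.97, SE 0.64, adjusted p = 0.114 by edgeR), and the alternatives ran from an adjusted p of 1.42e-05 to 0.871. Ms4a4c (263 against 478 CPM, log2 difference -1.04, SE 0.57, adjusted p = 0.709 by edgeR) did not pass either. Ms4a6c, Ms4a6b, Cyp4f18 and Ms4a6d differed by -0.48, -0.42, -0.05 and -0.02 (log2), with adjusted p from 0.737 to 0.998 by edgeR. Ms4a6d was at 578 and 582 CPM, the closest of the members. Ms4a4b and Ms4a1 did not pass the filter on low counts. Among the other genes called, C1qa, C1qb and C1qc made the split, Apoe, Pf4, Fcrls, Retnla and Sepp1 were higher in C1q-positive wells, and Chi3l3, Ero1l and Gpnmb were lower with Plac8.

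The plates too small for the fit showed the same order for Plac8. Its level was 45.8 CPM in C1q-positive and 122 CPM in C1q-low wells of FibCtrl replicate 1, 17.8 and 819 CPM in FibCtrl replicate 3, 41.0 and 138 CPM in FibCtrl replicate 4, and 12.8 and 410 CPM in FibΔZeb1 replicate 4. C1q-low wells thus had the higher Plac8 value on 6 of 6 plates, though 4 of these plates had fewer than 10 wells of a class. Ms4a7 was 73.3 and 69.9 CPM, 164 and 0, 150 and 55.1, and 76.8 and 13.7 CPM on the same plates in the same order, so C1q-positive wells had the higher value on each.

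**Figure D2:**
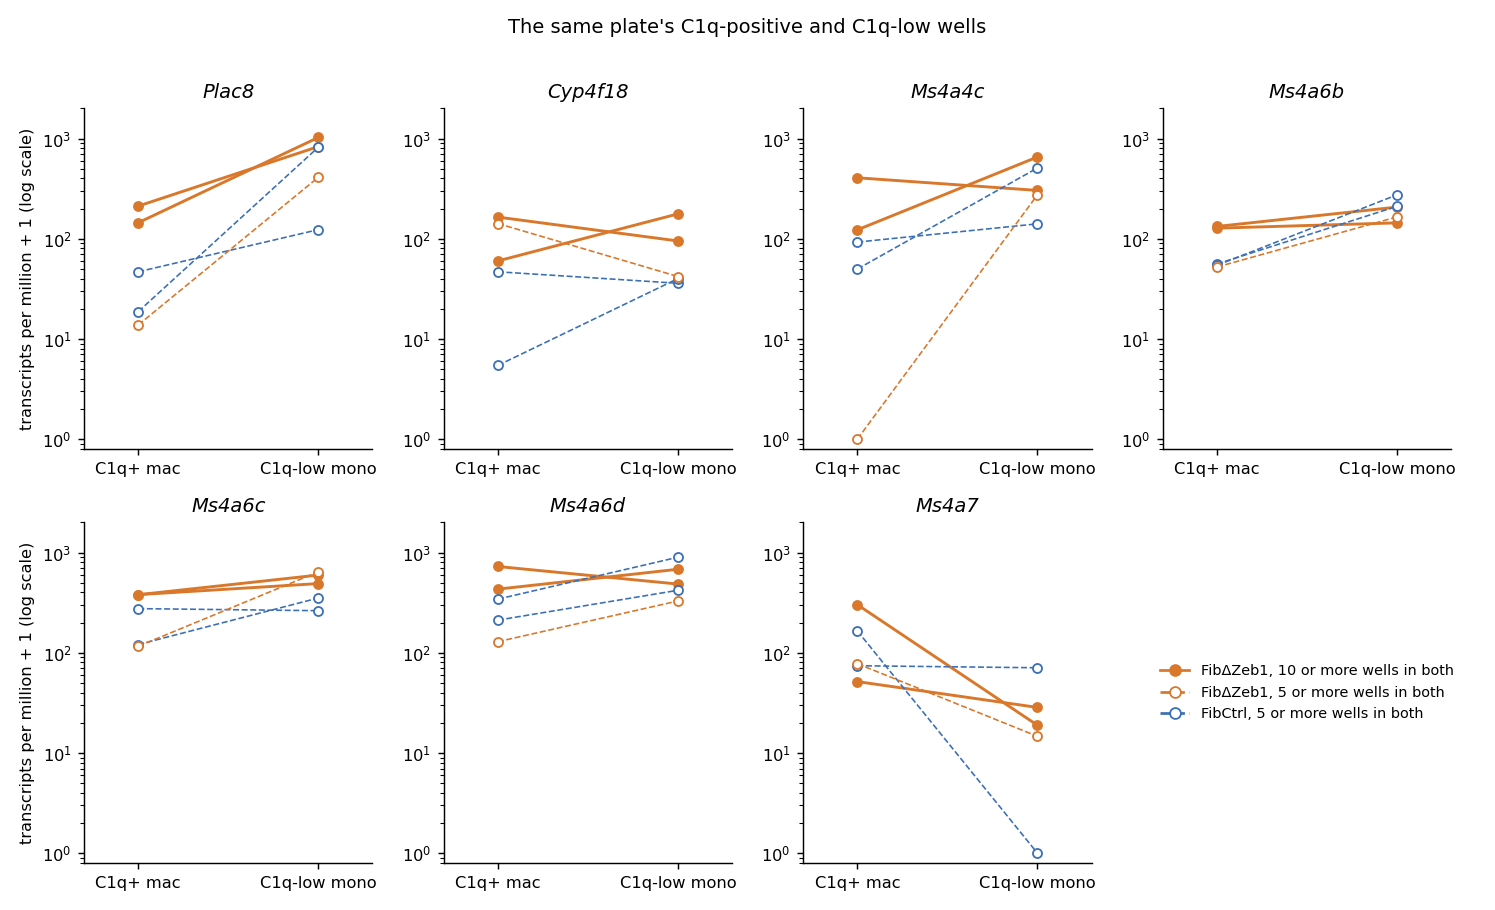
Level of 7 members (CPM + 1, log axis) in the C1q-positive and C1q-low wells of the same plate, joined by a line; filled points and solid lines mark plates with at least 10 wells of both classes, open points and dashed lines those with at least 5. Plac8 lines run up from C1q-positive to C1q-low and Ms4a7 lines run down, and Ms4a6d lines run both ways.

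On the 3 FibΔZeb1 plates that could be compared, neutrophils differed from C1q-low monocytes in all 6 members that passed the filter. No FibCtrl plate entered. Plac8, Cyp4f18 and Ms4a4c were chosen for high phagocyte values in this genotype, so their monocyte levels and p-values here are not free of that choice. Plac8 was at 755 CPM in C1q-low and 176 CPM in neutrophil wells of FibΔZeb1 replicates 1, 3 and 4 (log2 difference 1.95, SE 0.45, adjusted p = 0.00587 by edgeR, plate as a block). Ms4a4c (410 against 18.1 CPM, log2 difference 4.87, SE 0.71, adjusted p = 0.000305), Ms4a6c (575 against 13.7 CPM, 4.97, SE 0.57, adjusted p = 5.14e-05) and Ms4a6d (497 against 121 CPM, 2.09, SE 0.67, adjusted p = 0.0306) were higher in monocytes too. Ms4a6b had no transcript in the neutrophil wells of these plates. With a floor of 3 counts over the 3 plates, it was at least 10.5-fold higher in monocytes (adjusted p = 0.00166 by edgeR). It passed the filter on low counts through its monocyte wells alone. Its direction was thus fixed, and that p-value is no separate support. Cyp4f18 was the one member lower in monocytes, at 104 against 385 CPM (log2 difference -1.86, SE 0.44, adjusted p = 0.00716). The classes differ widely in general, since 32.6% of 1541 genes were called, and the fit had 2 residual degrees of freedom. Without FibΔZeb1 replicate 4 the adjusted p was 0.0812 for Plac8, 0.0905 for Cyp4f18 and 0.0549 for Ms4a6b. Their log2 differences were then 2.22, -1.41 and 7.42. Without replicate 3, Cyp4f18 had a log2 difference of -2.27 (adjusted p = 0.0503) and Ms4a6d one of 1.64 (adjusted p = 0.271), and without replicate 1 Ms4a6d had one of 1.39 (adjusted p = 0.0708). Leaving out a plate moved Ms4a6d between 1.39 and 3.81.

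B and T cells were compared on FibCtrl replicate 1 and FibΔZeb1 replicates 2 and 4. Ms4a1 (1136 CPM in B cells) and Cyp4f18 (114 CPM) had no transcript in the T cell wells of these plates. They were at least 109-fold and 11.4-fold higher in B cells (adjusted p = 1.81e-12 and 0.000595 by edgeR). Both passed the filter on low counts through their B cell wells alone. Their direction was thus fixed, and these p-values are no separate support. Plac8 was higher in B cells, at 304, 320 and 103 CPM with a mean of 243 against 58.2 CPM in T cells (log2 difference 2.18, SE 0.46, adjusted p = 0.00052), but DESeq2 gave an adjusted p of 0.0581. Ms4a6b was lower in B cells, at 53.2 against 416 CPM (log2 difference -2.87, SE 0.42, adjusted p = 2.37e-06). Ms4a4c (118 against 59.5 CPM, adjusted p = 0.217) and Ms4a6c (78.3 against 82.0 CPM, adjusted p = 0.993) did not pass. Of 2491 genes tested, 13.8% were called.

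In the contrast that chose the members, Plac8 was at 72.1, 99.6 and 54.8 CPM in all mononuclear phagocyte wells of FibCtrl replicates 1, 3 and 4. FibΔZeb1 replicates 1, 3 and 4 had 415, 586 and 205 CPM. The groups did not overlap, with means of 75.5 ± 22.6 and 402 ± 191 CPM (SD, n = 3 plates each) and a log2 difference of 2.39 (SE 0.41). The flow cell of each plate was inferred from the name under which its data were deposited. By flow cell, the levels were 415 and 72.1 CPM in the first, with 1 plate of each genotype, and means of 395 and 77.2 CPM in the second. Leaving out any 1 plate gave log2 differences from 2.06 to 2.70. These values come from the contrast that chose the gene and are no separate evidence for it.

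Cyp4f18 was at 42.1, 7.97 and 43.0 CPM in FibCtrl and 142, 130 and 92.5 CPM in FibΔZeb1 phagocytes, and the groups did not overlap (log2 difference 2.03, SE 0.46). Ms4a4c was at 108, 95.6 and 78.2 CPM in FibCtrl and 285, 343 and 132 CPM in FibΔZeb1, again without overlap (1.44, SE 0.36). Ms4a6c, which was not named in the rule, was at 270, 143 and 219 CPM against 445, 446 and 370 CPM, without overlap (0.99, SE 0.28). These 4 of the 7 members that passed the filter had all FibΔZeb1 plates above all FibCtrl plates, as did 4.94% of 4511 genes tested. The rule used this contrast, so nothing is read from that count. Across all genes tested, edgeR called 0, with 166 at an unadjusted p under 0.05, and DESeq2 called 1.

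The other 3 members that passed overlapped between genotypes. Ms4a6b was at 108, 75.7 and 62.6 CPM in FibCtrl and 154, 136 and 106 CPM in FibΔZeb1 (log2 difference 0.72, SE 0.32). Ms4a6d was at 282, 399 and 356 CPM against 507, 579 and 225 CPM (0.33, SE 0.34). Ms4a7 was at 72.1, 147 and 137 CPM against 214, 36.6 and 46.2 CPM (-0.15, SE 0.60), so 1 FibΔZeb1 plate had the highest value and the other 2 the lowest. Without FibΔZeb1 replicate 1 its log2 difference was -1.59. Ms4a4b was counted only in FibCtrl replicates 3 and 4 (23.9 and 3.91 CPM) and Ms4a1 on none of the 6 plates.

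The share of C1q-low wells differed between plates. It was 41.7% (95% exact binomial interval 15.2 to 72.3%), 22.9% (10.4 to 40.1%) and 18.8% (4.05 to 45.6%) of phagocyte wells in FibCtrl replicates 1, 3 and 4. In FibΔZeb1 replicates 1, 3 and 4 it was 33.3% (21.4 to 47.1%), 60.6% (42.1 to 77.1%) and 65.0% (40.8 to 84.6%). FibΔZeb1 replicate 1, with 415 CPM of Plac8, thus had a share inside the FibCtrl range, while FibΔZeb1 replicates 3 and 4 had shares above it. Its part in the genotype difference of Plac8, Ms4a4c and Ms4a7 was not tested.

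Plac8 came from few wells in the C1q-positive class and from most wells of 3 plates in the C1q-low class. In C1q-positive wells Plac8 was at 45.8, 17.8 and 41.0 CPM in FibCtrl and 144, 211 and 12.8 CPM in FibΔZeb1 replicates 1, 3 and 4. These overlap, and 92.0% of the 25 transcripts of FibΔZeb1 replicate 3 came from 1 of its 13 wells. On the same plate, 77.2% of the Ms4a4c transcripts of C1q-positive wells came from 1 well. In C1q-low wells Plac8 was at 122 and 819 CPM in FibCtrl replicates 1 and 3, which had 5 and 8 wells, and at 1025, 830 and 410 CPM in FibΔZeb1, so the genotypes overlapped (log2 difference 0.81). In FibΔZeb1 replicates 1, 3 and 4, 15 of 19, 11 of 20 and 10 of 13 C1q-low wells held Plac8, and no single well gave over 20.6% of its transcripts.

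Ms4a4c overlapped in C1q-low wells as well, at 140 and 507 CPM in FibCtrl and 653, 302 and 273 CPM in FibΔZeb1 (log2 difference 0.47). Ms4a6b and Ms4a6d turned to -0.50 and -0.37 there. Ms4a6c was at 595, 489 and 642 CPM in FibΔZeb1 and at 262 and 351 CPM in FibCtrl in these wells. Cyp4f18 was at 94.0, 176 and 41.0 CPM against 34.9 and 39.0 CPM. Its lowest FibΔZeb1 value rests on 3 transcripts and its FibCtrl values on 2 and 1. The share of all genes without overlap in C1q-low wells was not counted. These wells are also part of the contrast that chose the members, so nothing is read from the lack of overlap. Of C1q-low wells, 64.9% held Plac8. Among those with another member it was found in 34 of 39 with Ms4a4c, 31 of 36 with Ms4a6b and 44 of 53 with Ms4a6c. Plac8 was found in 41 of 52 with Ms4a6d, 17 of 27 with Cyp4f18 and 8 of 11 with Ms4a7. Of C1q-positive wells 26.4% held Plac8, as did 16 of 38 with Ms4a4c, 17 of 42 with Cyp4f18 and 18 of 42 with Ms4a6b. So did 24 of 72 with Ms4a6c, 25 of 83 with Ms4a6d and 10 of 41 with Ms4a7. Wells were pooled over plates and genotypes at unequal depth, and joint detection was not tested.

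**Figure D3:**
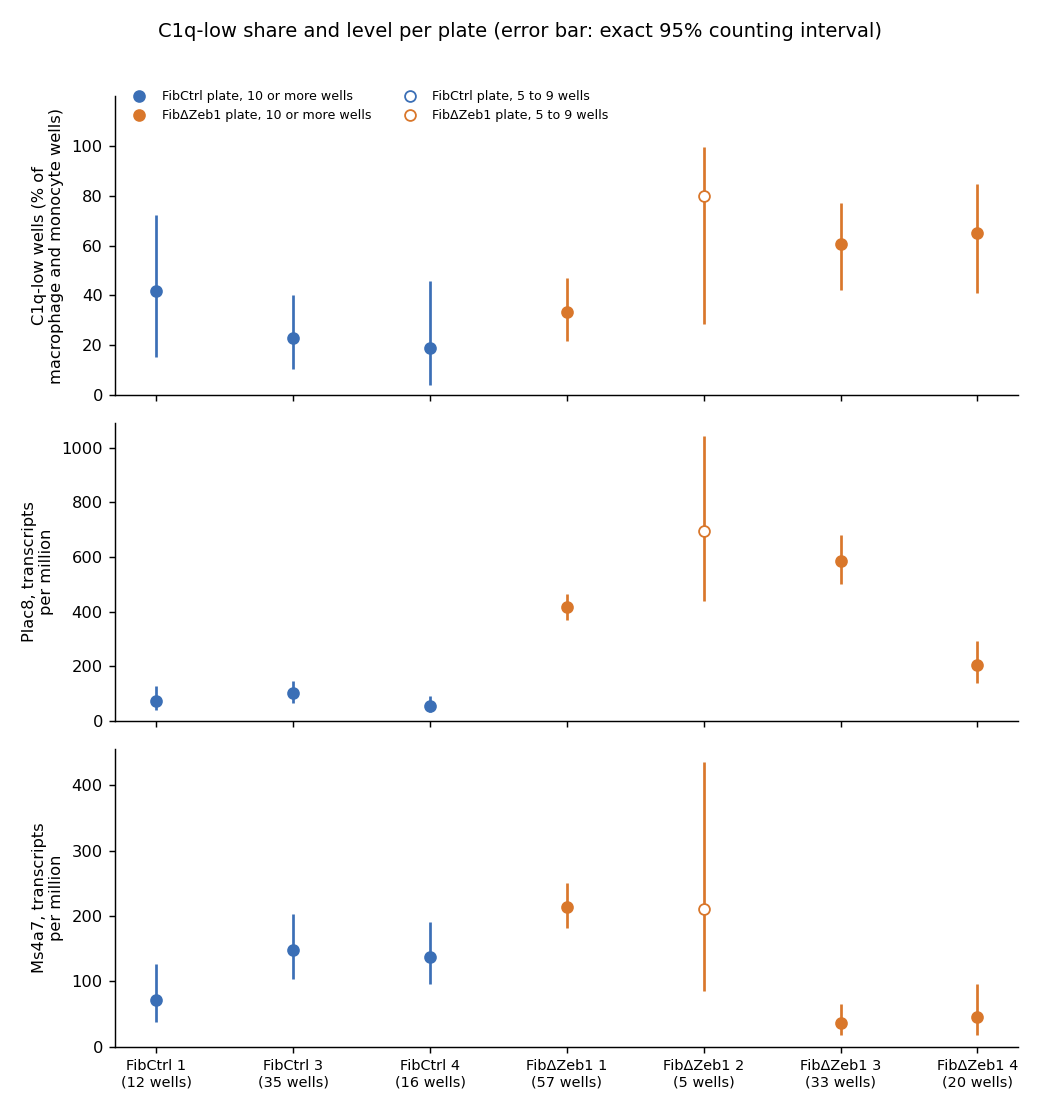
C1q-low share of mononuclear phagocyte wells (percent), Plac8 level (CPM) and Ms4a7 level (CPM) in all phagocyte wells of the 7 plates with at least 5 of them, with exact 95% intervals, FibCtrl in blue and FibΔZeb1 in orange. FibΔZeb1 replicate 1 has a C1q-low share of 33.3%, inside the FibCtrl range, together with a Plac8 level of 415 CPM and the highest Ms4a7 level, 214 CPM.

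Markers of other cell types were present in the phagocyte sums of both genotypes. Summed fibroblast markers ranged from 670 to 4968 CPM in FibCtrl and 971 to 2475 CPM in FibΔZeb1, with 8 to 11 of 11 genes detected. Neutrophil markers ranged from 516 to 811 and from 535 to 1005 CPM, B cell markers from 19.9 to 82.1 and from 40.0 to 66.1 CPM, and dendritic cell markers from 71.7 to 385 and from 266 to 363 CPM. Ms4a1 was at 0 in every phagocyte sum, so no transcript of the member most restricted to B cells was counted there. The part of the other markers in the member levels was not tested.

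Classical monocyte genes were mostly on the FibΔZeb1 side in the same wells, again as a description. Of 9 tested, 8 had a positive log2 difference, with a median of 0.48 against -0.02 over all genes tested. Ccr2, the receptor that lets monocytes leave the marrow, was at 824 against 414 CPM. Of 13 interferon-response genes tested, 10 were positive (median 0.87), as were 4 of 4 patrolling monocyte genes (0.41) and 5 of 12 tissue macrophage genes (-0.08). Of the other Cyp4f and leukotriene B4 genes, 4 of 6 tested were positive (0.17), among them Alox5ap, which helps make leukotrienes (606 against 290 CPM).

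The genotype contrast in other classes, which the rule did not use, called no member. In T cells, Ms4a6b had means of 460 CPM in FibΔZeb1 and 445 CPM in FibCtrl (log2 difference 0.15, SE 0.43, adjusted p = 0.965 by edgeR, 7 plates) and Ms4a4b of 216 and 184 CPM (0.57, SE 0.94, adjusted p = 0.964). Of 1014 genes 0.296% were called. In B cells, Ms4a1 was at means of 1144 and 1120 CPM (log2 difference -0.03), and Plac8, Cyp4f18, Ms4a4c, Ms4a6b and Ms4a6c differed by -0.33, 0.50, -0.21, 0.10 and -1.07, each with an adjusted p of 0.999 by edgeR. That comparison set 2 FibΔZeb1 plates against 1 FibCtrl plate, called 0.548% of 4747 genes and had 1 residual degree of freedom, so it could show little.

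In neutrophils, Cyp4f18 was the one member that passed the filter. Its means were 494 ± 241 CPM in FibΔZeb1 (n = 4) and 774 ± 115 CPM in FibCtrl (n = 3), which overlapped (log2 difference -0.73, SE 0.44, adjusted p = 0.788 by edgeR, with 0.104% of 965 genes called). Without the shallow FibCtrl replicate 2 the log2 difference was -0.55. Plac8 in neutrophils was at 38.3, 150 and 59.1 CPM in FibCtrl replicates 2 to 4 and 54.2, 150, 312 and 161 CPM in FibΔZeb1, which also overlap. Whether the genotype differences of phagocytes and of these classes differ from each other was not tested.

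Outside the immune cells, Plac8 was compared between genotypes in fibroblast and epithelial wells, where plate numbers let neither test pass. Fibroblast wells held 203, 377 and 223 CPM in FibCtrl replicates 1, 3 and 4 and 252, 162 and 215 CPM in FibΔZeb1 (log2 difference -0.31, exact permutation p = 0.5, smallest possible 0.1). Epithelial wells held 34.4, 138, 145 and 82.1 CPM in FibCtrl and 27.1, 453, 19.3 and 62.5 CPM in FibΔZeb1 (mean difference of log2 levels -0.46, two-sided exact permutation p = 0.714, smallest possible 0.0286, n = 4 each, adjusted p = 0.714 for both). The epithelial means went the other way, at 140.5 CPM in FibΔZeb1 and 99.8 CPM in FibCtrl, since FibΔZeb1 replicate 2 lifts the former. After adjustment over both tests, neither could pass even at its smallest possible p, so they do not show whether the genotypes differ. These comparisons were added after the data were seen.

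Other genes of the family were spread over further cell types. Ms4a2, the beta chain of the IgE receptor, was at 817 CPM in 7 mast cell or basophil wells (41 transcripts), Ms4a4d at 41.6 CPM in fibroblasts and Ms4a8a at 32.2 CPM in epithelium. The relatives Tmem176b (673 CPM in C1q-positive, 430 in C1q-low, 940 in epithelial and 499 in fibroblast wells) and Tmem176a (381, 245 and 371 CPM in the first 3) were found in phagocytes and tumour cells alike. Of the 13 genes listed for this group, 11 were in the data and at most 2 passed the filter in any comparison, and none was called in the comparisons within phagocytes, of monocytes with neutrophils or of B with T cells.

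Named gene lists gave context for the class comparisons. Against neutrophils, C1q-low monocytes had 4 of 6 tested classical monocyte genes higher, among them Ccr2 (1048 against 9.04 CPM), Fn1 (log2 difference 2.75) and Thbs1 (1.77), and Clec4e lower (-1.50), with a list median of 1.69 against 0.03 over all genes. Of 5 tissue macrophage genes, 4 were higher. Between the phagocyte classes, 4 of 11 tissue macrophage genes were higher and 1 lower in C1q-positive wells (median 1.51), and 1 of 9 classical monocyte genes was lower (median -0.54). Of 4 patrolling monocyte genes, 3 had a positive log2 difference (median 0.23), and none was called. None of 16 interferon-response genes was called there (median -0.89), and none of 4 leukotriene genes (median -0.73).

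The genes most like each member were read from 39 sums of a class and plate over 9530 genes, as Pearson's r of log2 CPM. Class, plate and depth are shared by these points, so the values are descriptions. Ms4a1 was closest to Cd79a (r = 0.881) and Rasgrp3 (0.860), and Ms4a4b to Cd4 (0.844), Lat (0.834) and Cxcr6 (0.832). Ms4a6b was closest to Cd48 (0.923), Rasgrp1 (0.920) and Gpr183 (0.903), and Cyp4f18 to Cd300lf (0.939) and Lyn (0.909). Ms4a7 ran with the myeloid genes Fcgr1 (0.848) and Clec10a (0.833), and Ms4a6d with Dpep2 (0.894), Msr1 (0.889) and Clec4a3 (0.863). Some of these, such as Cd79a, Lat and Fcgr1, were markers that defined the classes. Ms4a4c was closest to Cd74 (0.824), H2-DMa (0.803) and AI504432 (0.796), Ms4a6c to AI662270 (0.804), Rilpl2 (0.790) and Pycard (0.759). Plac8 had the weakest partners, Ssr3 (0.601), Rhoa (0.590) and Chsy1 (0.588).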

How the data were processed

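Colon tumours of 4 FibCtrl and 4 FibΔZeb1 mice were profiled by SORT-seq, a plate-based CEL-Seq2 method that counts transcript 3′ ends with unique molecular identifiers (UMIs). Per the labels, the submitters' processing notes name BWA, Cell Ranger 2.1.1 and the build GRCm38. The deposited values are estimated counts of transcripts per gene and well, which the authors' pipeline corrected for UMI collisions and did not scale to depth. UMIs remove PCR copies, and intervals and floors (3 counts) cover counting error only.

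The 89 spike-in and 37 mitochondrial rows were left out of totals. Wells were kept if they held 500 cell transcripts or more and their mitochondrial share exceeded the median of the plate by no more than 3 median absolute deviations. A well joined the class whose markers scored highest, scaled to the 99th percentile, with at least 3 markers detected and a ratio of at least 1.25 to the next class, and 256 wells (14.0%) stayed unassigned. The scoring rule was chosen, with its cut-offs, after looking at the data, while the markers had been written earlier. The sort gates of the wells were not used here. Leiden clustering (21 clusters) gave 92.1% of assigned wells the same class. Wells held 1 sorted cell, so no doublet caller was run. The same 384 well barcodes are used on all plates by design, and no 2 wells held identical counts. Markers Cd300c2, Ighm, Ighd, Trac, Trbc1 and Trbc2 and the genes Ms4a4a and Ms4a14 were not analysed here.

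Counts were summed per class and plate, rounded to whole numbers, and tested with edgeR 4.0.16 (TMM, filterByExpr, quasi-likelihood) in R 4.3.3, with Benjamini-Hochberg adjustment over all genes tested and a threshold of 0.05. Comparisons between classes had plate as a block, and genotype comparisons had no covariate. Alternatives were DESeq2 1.42.0, no filter on low counts, Leiden classes, other minimum well numbers and depths, flow cell as a covariate, a replicate block and leaving out plates. Orders of classes were tested on log2 CPM with a prior count of 2 (scipy 1.17.1). On simulated T cell counts (1003 genes), edgeR recovered 97.9% of genes changed 4-fold, and 4% of its calls were false. The simulation set the same dispersion for every gene. It does not give the power for genes that vary more between plates, such as Ms4a4b in T cells. The text names the 9 members, genes among the 3 of highest correlation with each, Zeb1, and up to 4 genes of each list, and some genes that the rule names are not reported here. Members, lists and tests were chosen with earlier results of these data known. The methods of the study name littermates, but nothing in the labels says which plates shared a litter or a day. The tests therefore treat mice and plates as independent. In fits with 1 residual degree of freedom, as between the phagocyte classes, p-values rest mostly on spread estimated over all genes.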

Additional observations from a re-analysis of the deposited data

Results flagged for a closer look

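Among the 4 FibΔZeb1 plates, Plac8 in epithelial wells of replicate 2 lay far from the others, at 453 CPM (696 transcripts) against 19.3 to 62.5 CPM. Ms4a4c in epithelial wells of FibΔZeb1 replicate 1 was at 21.5 CPM (31 transcripts) against 0.651 to 4.03 CPM on the other FibΔZeb1 plates. Ms4a6c in epithelial wells of FibCtrl replicate 2, the shallow plate, was at 31.9 CPM (22 transcripts) against 3.47 to 7.43 CPM on the other FibCtrl plates. These 3 stood apart by Dixon's test among 12 groups of 4 or more plates with at least 10 transcripts, and chance gives about 1 in 20.

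Cyp4f18 in the C1q-low wells of FibCtrl replicate 2, which were too few to enter any comparison, was at 5283 CPM against 0 to 39.0 CPM on the other FibCtrl plates. It rests on 36 transcripts in 2 wells, of which 34.1 came from a single well with 4314 transcripts. That well held 1 transcript each of the neutrophil markers S100a8, S100a9 and Csf3r, 2 of the phagocyte marker Cd68 and 0 of Csf1r.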

How the results depend on the processing

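No called difference changed sign, while differences of members that were not called did so 7 times in T cells, 5 in B cells, 6 in phagocytes, 1 between the phagocyte classes and 2 between B and T cells. In T cells, leaving out a plate moved Ms4a4b from -0.14 to 1.88 and Ms4a6b from -0.11 to 0.56 (log2). Without the filter on low counts, 29 genes were called for genotype in T cells (3 with it), 10 in B cells (26), 20 in neutrophils (1), 43 in phagocytes (0) and 100 between the phagocyte classes (15). DESeq2 called 1 in B cells, 1 in phagocytes, 309 between monocytes and neutrophils (502 by edgeR) and 217 between B and T cells (345). With a minimum of 5 wells, B cells had 0 and B against T cells 182. Between the phagocyte classes, Leiden classes gave 34 and a minimum of 1000 transcripts per well 42, and C1q-positive wells alone gave 1 gene for genotype. Leaving out 1 plate gave 0 to 3 in T cells (0 without FibCtrl replicate 4), 1 to 6 in neutrophils (6 without FibCtrl replicate 2 and 4 without replicate 4), 0 to 1 in phagocytes (1 without FibCtrl replicate 4), 157 to 432 between monocytes and neutrophils (157 and 257 without FibΔZeb1 replicates 4 and 3) and 180 to 406 between B and T cells (180 without FibCtrl replicate 1). The cause was not tested. A replicate block gave 0 in T cells, 1 in neutrophils and 0 in phagocytes. Correlations between the deviations of same-numbered plates ran from -0.11 to 0.45. Whether the numbers pair the plates was not tested.

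The members lost their call 7 times between monocytes and neutrophils (without a plate, or for Ms4a6d with a minimum of 1000 transcripts, adjusted p = 0.0553), 1 time between B and T cells (Plac8 by DESeq2), and Ms4a7 passed 2 times between the phagocyte classes (no filter, and 1000 transcripts, adjusted p = 0.0268). The order of classes had 0 calls under each setting, and in the main setting no pair could have passed. Not run, for too few plates, were block, flow cell and leave-one-out fits for B cells, C1q-low wells alone at 10 wells, and leave-one-out fits between the phagocyte classes. Depth was low in neutrophil wells (median 1908 transcripts) and on FibCtrl replicate 2 (221 per well).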

Other observations

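Small classes held members at levels with wide counting intervals (exact 95% Poisson). In 13 dendritic cell wells, Plac8 was at 693 CPM (565 to 841, 102 transcripts), Ms4a6c at 326 CPM, and Ms4a7 had no transcript. All 56 Ms4a4c transcripts of these wells came from the 5 wells of FibΔZeb1 replicate 1 (817 CPM), and the other 6 plates had 0. Plac8 was counted on 4 of the 7 plates. In 7 NK or innate lymphoid wells, Ms4a4b was at 557 CPM (288 to 973, 12 transcripts). Plac8 was also counted in pericyte wells (324 CPM, 22 wells), mast cell or basophil wells (219 CPM, 11 transcripts) and mesothelial wells (119 CPM). These are sums over all plates with no replicate check.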
